A study of Mus musculus with 6 samples.

Results

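Star strands are the arms of microRNA (miRNA) hairpins that older miRNA names mark with an asterisk. They were measured in mouse CD8+ T cells 3 days after priming by either dendritic cells or B cells. All assays with a mouse name ending in an asterisk were taken, which gave 55 of the 350 miRNA assays in the panel. For 54 of them the other arm of the same hairpin, whose name has no asterisk and which is called the unstarred arm here, was assayed too. The exception was the assay shared by miR-467a* and miR-467d*. The panel also held 13 star assays with human names and 251 mouse assays without a star.

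The cells were CD8+ T cells of pMel-1 mice, whose transgene encodes a receptor specific for gp100, an antigen of melanoma. In the DC-primed group, labelled as the test, they had been activated in vitro with bone marrow-derived dendritic cells matured with lipopolysaccharide (LPS). In the B cell-primed group, labelled as the control, the activating cells were splenic B cells loaded with the peptide hgp100(25-33). Each group had 3 samples, from rounds 1, 2 and 3, and every culture lasted 3 days. This transgene and the 3 days of priming are common to both groups. The labels name a peptide only for the B cells, and give neither the purity of the T cells after priming nor whether rounds came from different mice, so the p-values cover the spread among these 6 samples and nothing wider. Levels are minus dCt, where dCt is a threshold cycle (Ct) relative to 1 number per sample. This is a log2 scale on which a higher value means more RNA and 1 unit is a 2-fold difference. A bulk level cannot tell fewer cells with the RNA from less RNA per cell.

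A miRNA precursor folds into a hairpin that the nuclease Dicer cuts to a short duplex. Usually 1 arm, the guide, is kept by an Argonaute protein and represses mRNAs that match its seed, and the other, the passenger or star strand, is degraded. Which arm is kept depends on the stability of the duplex ends and on the first base, for which Argonaute favours U. Both arms of a hairpin come from 1 transcript, and their ratio sets aside any scaling between samples. Star strands can be loaded as well, and miRNAs of activated T cells such as those of the miR-17 cluster leave measurable amounts of both arms.

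The first sequences shown are those of the miR-17 cluster hairpins and of miR-93, a paralog, which include the largest tested difference among the star strands, that of miR-18a*. Capitals mark the seed, bases 2 to 8. They come from RefSeq, mouse build GRCm38.p6, with miR-17* at chr14:115043721-115043742, miR-18a* at chr14:115043908-115043929 and miR-20a* at chr14:115044219-115044240, all on the plus strand, and miR-93* at chr5:138165536-138165557 on the minus strand.

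miR-17*: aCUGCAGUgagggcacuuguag
miR-17: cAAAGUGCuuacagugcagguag
miR-18a*: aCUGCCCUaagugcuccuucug
miR-18a: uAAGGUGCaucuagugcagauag
miR-20a*: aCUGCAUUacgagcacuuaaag
miR-20a: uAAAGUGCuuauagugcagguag
miR-93*: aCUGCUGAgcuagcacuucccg
miR-93: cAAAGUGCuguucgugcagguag

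The unstarred arms of miR-17, miR-20a and miR-93 share the seed AAAGUGC, while their 3 star strands have 3 different seeds. A second set carries the arm ratios described below. let-7g* and miR-7a* read higher than their unstarred arms in all 6 samples, miR-99b* had the most negative difference of the ratio among tested hairpins, miR-9* the widest gap between the groups when late Ct values were kept, and miR-21* a ratio far to the unstarred side in every sample. let-7g* lies at chr9:106178902-106178923 on the plus strand, miR-7a* at chr13:58392800-58392821 on the minus strand, miR-99b* at chr17:17830232-17830253 on the plus strand, miR-9* at chr3:88215652-88215673 on the plus strand for the first of 3 hairpins with this sequence, and miR-21* at chr11:86584082-86584103 on the minus strand.

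let-7g*: aCUGUACAggccacugccuugc
let-7g: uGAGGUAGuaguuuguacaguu
miR-7a*: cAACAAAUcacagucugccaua
miR-7a: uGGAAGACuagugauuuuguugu
miR-99b*: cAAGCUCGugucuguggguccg
miR-99b: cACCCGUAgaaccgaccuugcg
miR-9*: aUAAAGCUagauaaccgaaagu
miR-9: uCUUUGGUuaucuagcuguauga
miR-21*: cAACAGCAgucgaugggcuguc
miR-21: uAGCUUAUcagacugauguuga

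RefSeq sequences were matched for 49 star strands, and for 46 hairpins both arms were found. In those 46, the unstarred arm began with U in 32 and the star strand in 6. Star strands began with C in 20, A in 13 and G in 7. The star strand lay on the 3′ arm in 29 hairpins and on the 5′ arm in 17. Its median GC content was 50% against 43.2% for the unstarred arm. In 7 of these hairpins, those of miR-7a, miR-9, miR-16, miR-29b, miR-30c and both of miR-24, the unstarred sequence is also made by another hairpin, so its signal pools more than 1 transcript. A copy missing from the sequences used would not be counted. The RefSeq name of let-7a*, mmu-let-7a-1-3p, carries a copy number although only 1 hairpin was found. Matching used the assay names, since the sources used here give no primer sequences.

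The samples differed in how early their assays came up. The mean Ct over the 274 assays below Ct 35 in all 6 samples was 26.3, 28.4 and 30.5 in DC-primed samples 1, 2 and 3 and 26.4, 27.2 and 27.6 in B cell-primed samples 1, 2 and 3. Of the 55 star strands, DC-primed samples 1, 2 and 3 had 55, 52 and 39 below Ct 35 and B cell-primed samples 55, 55 and 54. DC-primed sample 3 thus stood apart. The Caenorhabditis elegans assay cel-mir-67, whose use the labels do not state, had median Ct values of 18.5, 24.8 and 17.2 in DC-primed samples against 22.9, 19.2 and 19.2 in B cell-primed samples, so DC-primed sample 3 was the earliest there. A second worm assay, cel-mir-356, gave Ct 44.1 and 44.9 in the samples of round 1 and no Ct in the other 4.

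Star assays read lower than the other mouse assays at the median, with a wide range. The median of the 55 mean levels was -2.09, against -0.88 for 248 mouse assays without a star and -1.27 for all 345 assays with a dCt. The range ran from let-7g* at 8.82 to miR-186* at -6.65, and 21 star strands lay above the median of all assays. These are levels of assays with different primers, so their order is one of signal and need not be one of molecules.

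let-7g* (mmu-let-7g* in the panel), the star strand of a let-7 tumour suppressor miRNA, had levels of 7.38, 10.38 and 11.60 in DC-primed samples against 7.55, 7.79 and 8.22 in B cell-primed samples. It was the highest star strand in all 6 samples, with the DC-primed samples of rounds 2 and 3 above every other sample and that of round 1 below. miR-7a* came next, at 5.37, 8.01 and 9.02 in DC-primed samples against 6.51, 5.54 and 6.79 in B cell-primed samples. miR-16-1*, from the hairpin beside miR-15a that restrains BCL2, read 0.95, 2.59 and 4.69 against 3.39, 2.21 and 2.09. For both the groups overlapped, with DC-primed sample 1 lowest and sample 3 highest. The 5 lowest means were those of miR-186*, miR-29a*, miR-146b*, miR-9* and let-7i*, each with a Ct of 35 or later in at least 1 sample.

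**Figure D1:**
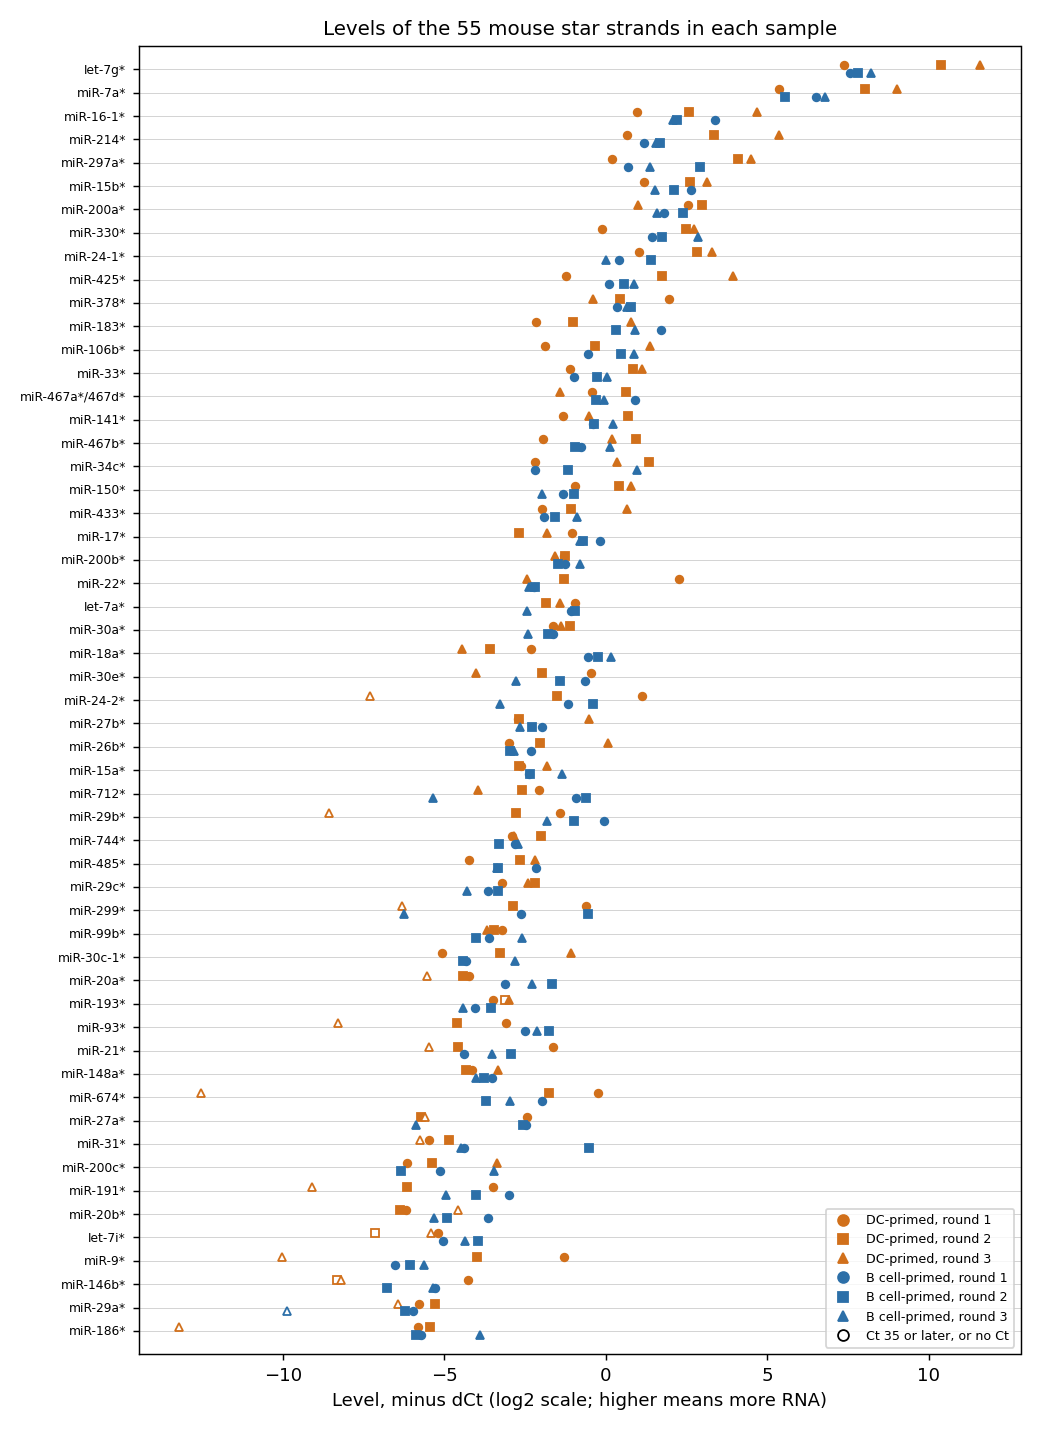
Level (minus dCt, log2 scale) of each of the 55 star strands in the 3 DC-primed (orange) and 3 B cell-primed (blue) samples, ordered by mean level; open symbols mark a Ct of 35 or later or a missing Ct. let-7g* and miR-7a* stand apart at the top, and most open symbols belong to DC-primed sample 3.

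The design asks whether these strands differ by the cell that primed the T cells. Of the 55, 38 had a Ct below 35 in all 6 samples and were tested; of the other 17, 13 were left out by DC-primed sample 3 alone. The 4 others were let-7i*, miR-146b*, miR-29a* and miR-193*, the last with no Ct in DC-primed sample 2, where the authors filled in a dCt. limma, fitted over all 274 assays, called 0 of the 38 at a Benjamini-Hochberg adjusted p under 0.05 (0% of the 274), and 1 had an unadjusted p under 0.05 against 24 of 274 (8.76%). On the authors' scale 23 star strands lay higher and 15 lower in DC-primed cells, with a median difference of 0.23 against 0.07 over all 274. A difference of 1 or more was seen for 12 (31.6%), 9 of them higher in DC-primed cells, against 32.1% of all assays. The groups did not overlap for 5 (13.2%), against 13.5% of all assays. DC-primed samples lay above in 3, against 5.47% of all assays, and below in 2, against 8.03%. The shares for star strands were near those of the whole panel.

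That split depended on the scaling. Without normalization every difference moved by -1.33 on the log2 scale, which left 5 star strands higher and 33 lower. With the small RNAs RNY3 and snoRD47 as the reference it moved by 1.23, giving 35 higher and 3 lower. Only miR-18a*, miR-183* and miR-17* were lower in DC-primed cells under all these scalings, and only let-7g*, miR-24-1*, miR-22*, miR-214* and miR-150* higher. Without DC-primed sample 3 the split was 19 against 19.

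The largest tested difference was that of miR-18a* (mmu-miR-18a*), from the miR-17 cluster, which promotes lymphocyte proliferation and survival. Its levels were -2.33, -3.57 and -4.45 in DC-primed samples against -0.55, -0.23 and 0.17 in B cell-primed samples. Every DC-primed sample lay below every B cell-primed one. The difference was -3.25 ± 0.74 (SE, n = 3 each; 95% confidence interval -4.94 to -1.56; limma adjusted p = 0.228), with an unadjusted p of 0.002. With the round as a block the adjusted p was 0.0522, the smallest in that fit. By round it was -1.78, -3.34 and -4.62, and with any single sample left out it lay between -3.81 and -2.75.

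miR-17* (mmu-miR-17*) was at -1.06, -2.69 and -1.80 in DC-primed samples against -0.17, -0.71 and -0.80 in B cell-primed samples. These groups did not overlap either, though the gap was small, and the difference was -1.29 ± 0.69 (SE; adjusted p = 0.707). miR-20a* read -4.23, -4.42 and -5.54 against -3.13, -1.68 and -2.29, a difference of -2.37 that was not tested because its Ct in DC-primed sample 3 was 36.0. All 3 DC-primed values lay below the B cell-primed ones, and with that sample left out of the test and of the limit the difference was -1.96 ± 0.77 (SE; adjusted p = 0.258). miR-93*, from the paralogous miR-106b cluster, read -3.10, -4.59 and -8.29 against -2.50, -1.77 and -2.13. Its difference of -3.20 was -1.71 ± 0.79 (SE; adjusted p = 0.318) without DC-primed sample 3, where its Ct was 38.8.

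The other star strands of these paralogs did not share 1 direction. miR-106b* differed by -1.32, -0.79 and 0.51 in rounds 1, 2 and 3, and miR-20b* by -2.51, -1.44 and 0.75. Among the 6 unstarred miRNAs of the miR-17 cluster, 1 was higher and 5 were lower after DC priming (median difference -2.30, 0 called). The unstarred arms of the 3 cluster hairpins with star assays differed by -3.62 for miR-18a, -2.13 for miR-17 and -2.47 for miR-20a, so both arms of each hairpin lay on the same side. The cluster arms are near-identical within the family on the unstarred side, where miR-17, miR-20a and miR-93 share their seed and can share signal.

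**Figure D2:**
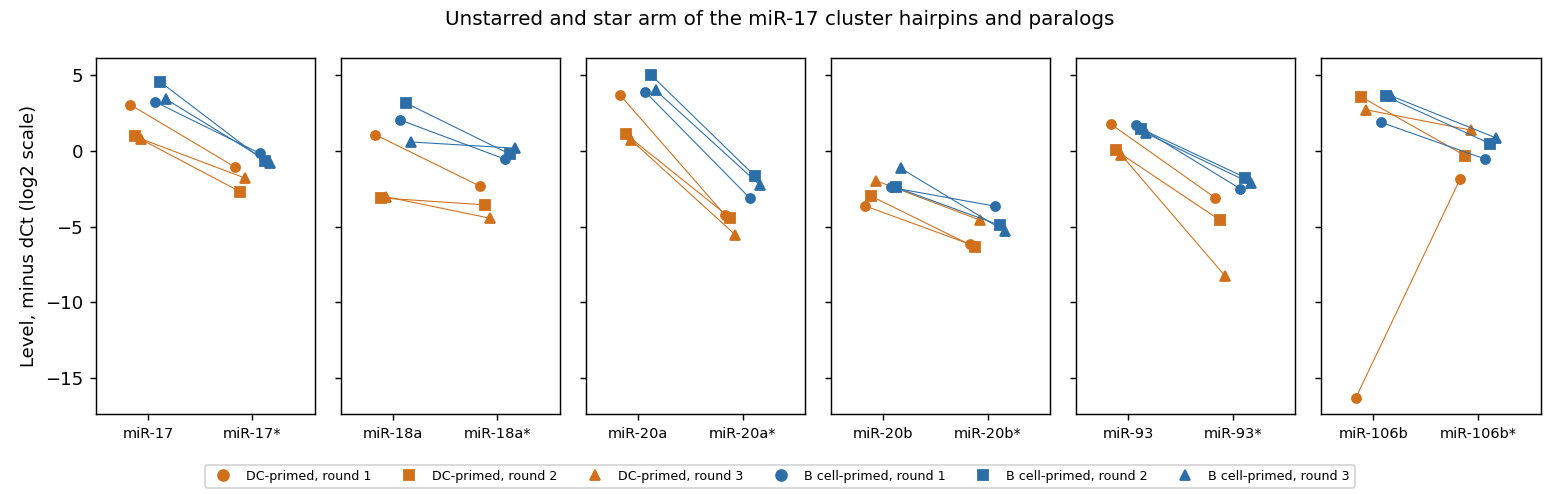
Levels (minus dCt, log2 scale) of the unstarred arm and the star strand of 6 hairpins of the miR-17 cluster and its paralogs, with 1 line per sample (orange, DC-primed; blue, B cell-primed). In the miR-17, miR-18a and miR-20a panels both ends of the DC-primed lines tend to lie lower with similar slopes, and in the miR-106b panel 1 line drops because miR-106b had a Ct of 42.5 in DC-primed sample 1.

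Toward DC-primed cells the largest tested difference was that of let-7g*, at 1.93 ± 1.05 (SE; adjusted p = 0.707), where the groups overlapped; it was 1.02 without DC-primed sample 3 and 3.13 without DC-primed sample 1. miR-24-1* (mmu-miR-24-1*), from the miR-23b, miR-27b and miR-24-1 cluster, followed at 1.79 ± 0.81 (SE; 95% confidence interval -0.05 to 3.64; adjusted p = 0.560). Its levels were 1.04, 2.84 and 3.30 in DC-primed samples against 0.40, 1.39 and 0.00 in B cell-primed samples, where B cell-primed sample 2 lay above DC-primed sample 1. miR-22*, from a hairpin abundant in myeloid cells, differed by 1.77 ± 1.13 (SE), but its levels of 2.26, -1.29 and -2.42 against -2.21, -2.18 and -2.37 were alike in all samples but DC-primed samples 1 and 2, and the difference was 0.39 without sample 1. For miR-214*, from a hairpin of mesenchymal cells, the difference of 1.66 ± 1.11 (SE) was 0.54 without DC-primed sample 3.

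Among tested star strands, those of miR-150, miR-29c and miR-30a were higher in all 3 DC-primed samples than in any B cell-primed sample. miR-150, which targets Myb in lymphocytes, gave a star strand (mmu-miR-150*) at -0.94, 0.41 and 0.77 in DC-primed samples against -1.33, -0.98 and -1.96 in B cell-primed samples, a difference of 1.50 ± 0.72 (SE; adjusted p = 0.607). The lowest DC-primed value lay just above the highest B cell-primed one. miR-29c* (mmu-miR-29c*), from a family that limits T-bet and interferon gamma in T cells, differed by 1.16 ± 0.66 (SE; adjusted p = 0.709), with -3.20, -2.20 and -2.40 against -3.66, -3.34 and -4.30. miR-30a* differed by 0.57 ± 0.63 (SE; adjusted p = 0.971). Of these 3, miR-29c* and miR-30a* had the opposite sign without normalization, at -0.17 and -0.76.

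In the other direction miR-183*, of a cluster that T cell activation induces, read -2.17, -1.02 and 0.77 in DC-primed samples against 1.71, 0.30 and 0.90 in B cell-primed samples. The groups overlapped through DC-primed sample 3, and the difference was -1.78 ± 0.88 (SE; adjusted p = 0.635). The remaining tested star strands with a difference of 1 or more were miR-297a* at 1.27, miR-7a* at 1.18 and miR-26b* at 1.04. With 1 sample left out these ranged from 0.49 to 2.63, from 0.41 to 2.23 and from 0.18 to 1.72, and miR-183* from -2.57 to -1.10. miR-200c*, of an epithelial family, had a difference of -0.00025 with a 95% confidence interval of -2.29 to 2.29, so the samples leave room for a sizeable difference either way at this spread. Among untested star strands the groups did not overlap for miR-193*, higher in DC-primed cells. The same held for miR-20a*, miR-93*, miR-31* and let-7i*, lower there. miR-31* differed by -2.22 and let-7i* by -1.46, both with a Ct past 35 in DC-primed sample 3. With no Ct limit the groups did not overlap for 14.5% of all 345 assays.

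In the authors' deposited table, which gives a paired test over the rounds, 1 of the 55 star strands had a p under 0.05 against 18 of 345 assays (5.22%). It was miR-15a*, with a p of 0.0229 in the authors' deposited table and a ddCt of 0.35, which is lower in DC-primed cells. In the limma fit miR-15a* differed by -0.35 ± 0.67 (SE; adjusted p = 0.986), with both groups overlapping. For miR-18a* the authors' deposited table gives a p of 0.0585.

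Levels of miRNAs that mark other cells differed between samples, with 0 called between the groups, and their part in the star-strand differences was not tested. Of 6 listed miRNAs of myeloid and dendritic cells 5 were assayed and 3 tested; all 3 lay higher after DC priming (median difference 2.54, 0 called). The summed level of all 5 assayed, with the untested miR-223 and miR-146b among them, was 6.70, 4.56 and 0.89 in DC-primed samples. In B cell-primed samples it was 1.00, 0.20 and 0.28. miR-223, the defining myeloid miRNA, had Ct values of 20.8, 27.2 and 37.0 against 32.1, 32.4 and 32.7, so it was earliest in DC-primed sample 1 and latest in sample 3. Of 3 miRNAs listed for B cells miR-150 and miR-34a were assayed, and both lay higher after DC priming (median 0.93). Their summed level was 3.90 to 5.59 in DC-primed samples against 3.27 to 4.09 in B cell-primed samples. Whether miR-34a marks B cells in these cultures was not tested. Because miR-150 is in the lymphocyte list too, the lists overlap and it cannot tell B cells from other lymphocytes here. The lymphocyte list had 5 of 6 members tested, all of them higher after DC priming (median 0.62). Over all 6 members the summed level was 8.09 to 8.87 in DC-primed samples against 6.09 to 7.50 in B cell-primed samples. That sum includes miR-142-3p, which was not tested and had no Ct in DC-primed sample 3. The 8.09 of that sample thus contains a filled-in value and is no measured level. Of 2 erythroid markers 1 was tested, at 1.31. Of 27 tested cluster partners and unstarred arms of the star strands 13 were higher and 14 lower, with a median of -0.09 and 0 called.

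Arm use was then read as the Ct of the unstarred arm minus the Ct of the star strand, the log2 star-to-unstarred ratio, which no scaling between samples can alter. The star strand was below its partner in all 6 samples in 26 of 54 hairpins and above it in all 6 in 8. In 19 the sign differed between samples, and miR-193* was below its partner in the 5 samples with a Ct. The median of the mean ratios was -2.58. The 8 with the star strand above were miR-330*, miR-7a*, let-7g*, miR-214*, miR-33*, miR-200a*, miR-183* and miR-141*. Primers of the arms may differ in efficiency, so a ratio is compared here only between samples of 1 hairpin.

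Ratios far to the unstarred side were read for miR-34c, a p53 target, miR-21, raised by T cell activation, and miR-29a. The miR-34c* ratio was -13.13, -11.86 and -15.57 in DC-primed samples against -14.05, -12.75 and -11.62 in B cell-primed samples, with miR-34c itself at Ct 14.5 to 15.5 throughout. That assay spanned 1.04 cycles while the mean Ct of the samples spanned 4.24, so its signal did not follow the samples. What it detects was not tested. The miR-21* ratio was -11.76, -11.95 and -18.38 against -11.52, -9.32 and -10.87. miR-29a* had a mean ratio of -10.14. In all 3 hairpins every sample lay far to the unstarred side.

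At the other end, the miR-7a* ratio was 3.04, 7.02 and 10.69 in DC-primed samples against 3.05, 3.22 and 6.69 in B cell-primed samples. For let-7g* it was 1.97, 6.38 and 9.33 against 3.15, 3.86 and 5.50. Both were lowest in the round 1 samples and highest in DC-primed sample 3, and the groups overlapped. The raw Ct of let-7g* ran only from 18.1 to 19.4 over the 6 samples, while that of let-7g ran from 20.8 to 28.2. For miR-214 the ratio varied little, at 4.55 ± 0.96 after DC priming and 4.15 ± 0.42 after B cell priming (SD, n = 3 each). Raw Ct spanned only 1.88 cycles for miR-214 and 0.99 for miR-214*, while the mean Ct of the samples spanned 4.24. Neither arm thus followed the samples, and a steady ratio of such assays need not reflect arm use.

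Late readings of the unstarred arm set some ratios. miR-30a had Ct 41.6, 44.3 and 29.7 in DC-primed samples against 42.3, 44.6 and 26.6 in B cell-primed samples, so the miR-30a* ratio was 13.8 to 15.7 in rounds 1 and 2 and below 0 in round 3 in both groups. miR-106b had Ct 42.5 in DC-primed sample 1 and 23.5 to 27.8 elsewhere, which gave a ratio of 14.46 there and of -1.34 to -3.90 elsewhere. miR-146b had Ct 38.8 in DC-primed sample 3 and 21.5 to 31.9 elsewhere. miR-30a* and miR-106b* themselves showed no such jump. miR-330 had Ct 36.6 and 39.8 in DC-primed samples 2 and 3 and 30.2 to 32.5 elsewhere. This gave miR-330* ratios of 10.64 and 12.06 there and of 3.85 to 7.72 elsewhere. miR-183 had Ct 35.2 in DC-primed sample 3, where the miR-183* ratio was 5.53. Both hairpins had the star strand above in every sample, and neither was tested.

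**Figure D3:**
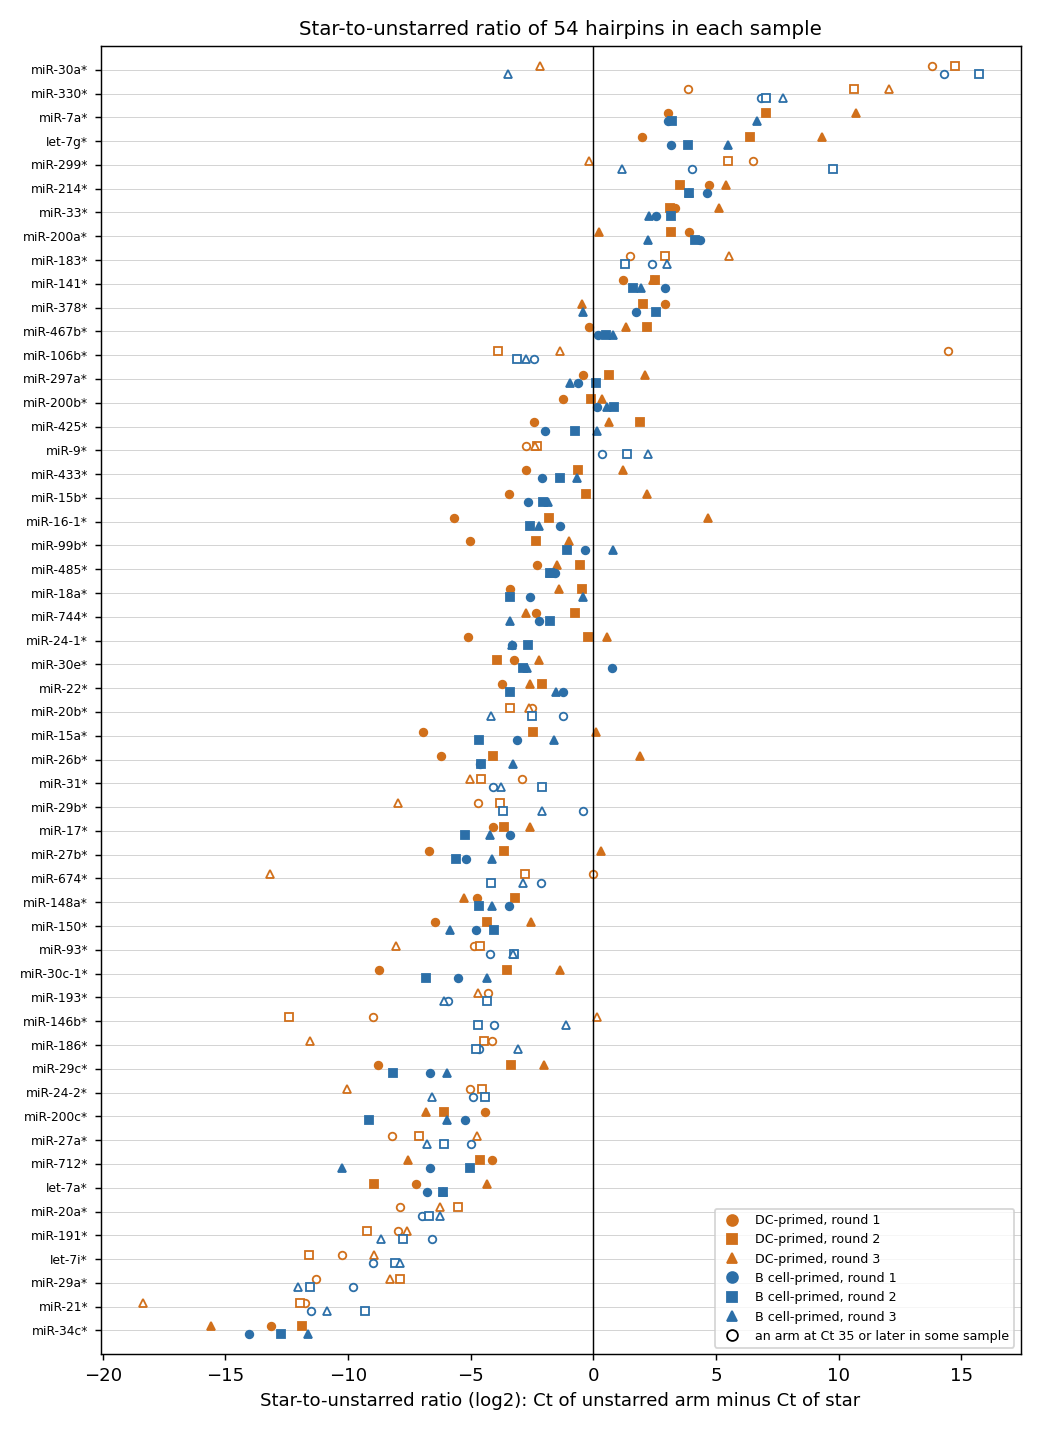
Log2 star-to-unstarred ratio (Ct of the unstarred arm minus Ct of the star strand) of 54 hairpins in the 3 DC-primed (orange) and 3 B cell-primed (blue) samples, ordered by mean ratio; open symbols mark hairpins with an arm at Ct 35 or later in some sample, which were not tested. Most hairpins lie left of 0, let-7g* and miR-7a* lie right of 0 in every sample, and round 3 DC-primed symbols often lie to the right of their group.

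Ratios were tested in 33 of the 54 hairpins, fitted together with 14 other pairs of arms in the panel. limma called 0 of the 33 at an adjusted p under 0.05 (0% of the 47) and 0 had an unadjusted p under 0.05, the smallest adjusted p being 0.907. No tested hairpin had groups that did not overlap (0% of the 47). The ratio was higher in DC-primed cells in 24 and lower in 9, or 72.7% higher against 70.2% of the 47 pairs, with a median difference of 0.62 against 0.53. A difference of 1 or more was seen in 16 (48.5%), against 44.7% of the 47. A median SE of 1.26 bounds what 3 samples a group could show.

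The direction of these differences was not the same in every round. In round 1 the ratio was lower in the DC-primed sample for 26 of 33 hairpins, with a median difference of -0.77. In rounds 2 and 3 it was higher for 24 of 33 each, with medians of 1.05 and 1.62. The mean Ct of the DC-primed minus the B cell-primed sample was -0.14, 1.24 and 2.85 cycles in the same 3 rounds, and its part in the ratios was not tested. The sample medians of the ratio were -3.42, -0.73 and 0.09 in DC-primed samples against -2.08, -2.59 and -1.75 in B cell-primed samples, so the DC-primed samples spread to both sides of the B cell-primed ones. DC-primed sample 1 was the richest in myeloid miRNAs and had the lowest mean Ct, 26.3. The other DC-primed samples had 28.4 and 30.5, and the B cell-primed samples 26.4 to 27.6. Without DC-primed sample 1, 8 star hairpins had an unadjusted p under 0.05 in limma, and these were 8 of all 47 pairs. All 8 had a higher ratio in DC-primed cells, with the smallest adjusted p at 0.104. They were miR-29c*, miR-24-1*, miR-7a*, let-7g*, miR-15b*, miR-30c-1*, miR-27b* and miR-16-1*, with differences of 3.13 to 4.54; for miR-24-1*, miR-7a*, miR-30c-1* and miR-16-1* the unstarred signal pools hairpins. Without DC-primed sample 3 the split was 18 higher and 15 lower, with a median of 0.12. In that fit 2 star hairpins had an unadjusted p under 0.05, against 4 of all 47 pairs. They were miR-99b* at -3.48 and miR-712* at 2.93, each with a limma adjusted p of 0.397.

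Of the 33 tested hairpins 5 had 1 sign in all rounds, 2 of them higher and 3 lower in DC-primed cells. This was not particular to star strands. Among the 14 other pairs of arms, those of miR-296, miR-423, miR-380 and miR-875 had 1 sign in all rounds too. miR-99b*, whose unstarred arm is abundant in myeloid cells, had ratios of -5.04, -2.33 and -1.01 in DC-primed samples against -0.36, -1.07 and 0.81 in B cell-primed samples. Only DC-primed sample 3 overlapped the other group, and the difference was -2.59 ± 1.26 (SE; 95% confidence interval -5.40 to 0.23; adjusted p = 0.907). The star strand itself differed by -0.05 while miR-99b differed by 2.54, so the difference of the ratio was close to that of the unstarred arm with its sign turned; miR-99b is also 1 of the 3 tested myeloid markers. miR-200a* and miR-200b*, of the epithelial miR-200 family, differed by -1.13 ± 1.26 and -0.84 ± 1.00 (SE). The higher ones were miR-712* at 1.88 ± 1.52 and miR-297a*, from the Sfmbt2 intron cluster, at 1.26 ± 1.07 (SE). None passed the test. With 1 sample left out the difference ranged from -3.48 to -1.46 for miR-99b*, from -1.86 to -0.028 for miR-200a*, from -1.19 to -0.39 for miR-200b*, from 0.41 to 3.02 for miR-712* and from 0.59 to 1.85 for miR-297a*.

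For the 3 hairpins of the miR-17 cluster the differences of the ratio lay nearer 0 than those of the star level. The miR-18a* ratio was -3.39, -0.46 and -1.42 in DC-primed samples against -2.57, -3.39 and -0.41 in B cell-primed samples, a difference of 0.37 ± 1.23 (SE; 95% confidence interval -2.38 to 3.12). The miR-17* ratio differed by 0.84 ± 1.04 (SE; 95% confidence interval -1.49 to 3.17). For miR-20a*, not tested, the means were -6.56 ± 1.21 and -6.66 ± 0.37 (SD, n = 3 each). In these 3 hairpins both arms were lower together, with groups that overlapped in the ratio, and the intervals still allow a ratio change of several-fold.

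**Figure D4:**
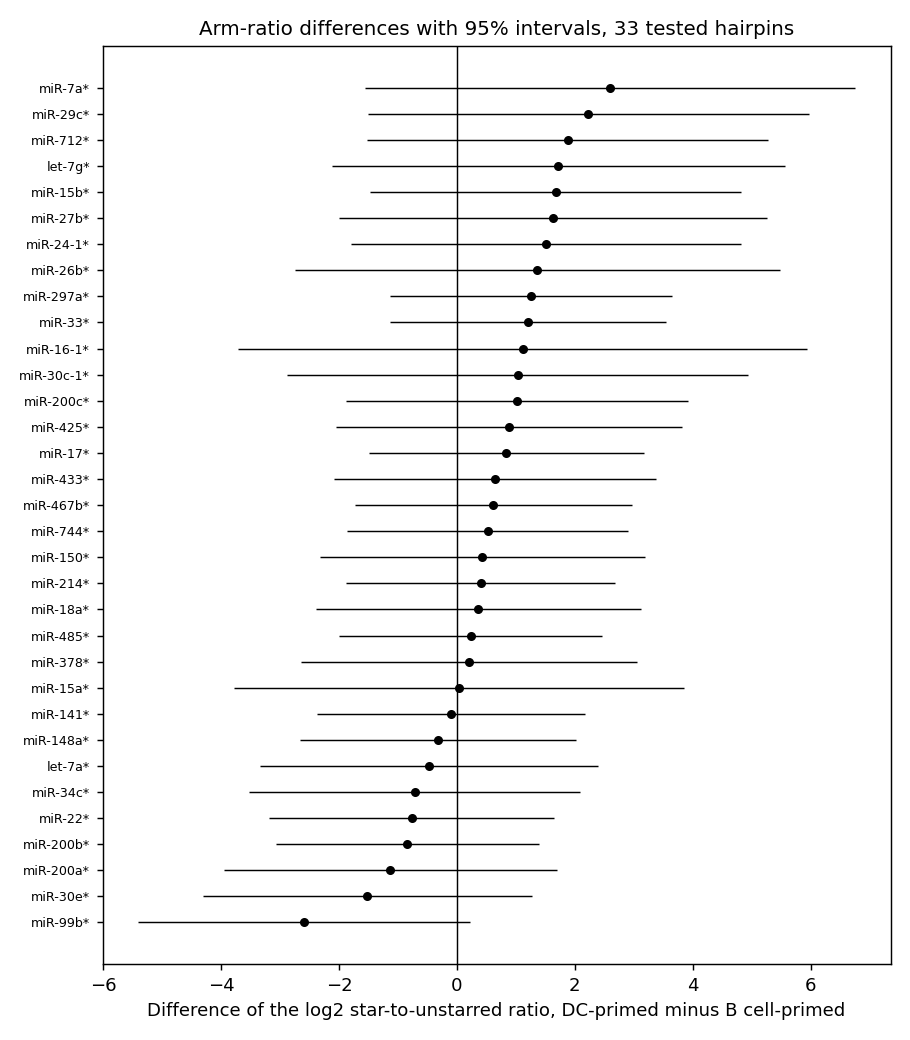
Difference of the log2 star-to-unstarred ratio, DC-primed minus B cell-primed, for the 33 tested hairpins (points) with limma 95% confidence intervals (lines, n = 3 samples per group). Every interval spans 0; the points run from -2.59 for miR-99b* to 2.60 for miR-7a*.

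With no limit on Ct, 74 pairs could be fitted, and 4 had groups that did not overlap (5.41%), all 4 star strands with the DC-primed ratio below. 0 were called, 2 had an unadjusted p under 0.05, and the smallest adjusted p was 0.368. All 4 had a star Ct of 35 or later in DC-primed sample 3, and for miR-9* the unstarred arm was also past 35 in both samples of round 3. The miR-9* ratio was -2.75, -2.28 and -2.39 in DC-primed samples against 0.37, 1.39 and 2.21 in B cell-primed samples, the widest gap, with a difference of -3.80. miR-9, an miRNA of neurons that NF-kappaB signalling also raises in myeloid cells, had Ct values of 24.7, 30.2 and 38.1 in DC-primed samples against 33.2, 34.6 and 35.5 in B cell-primed samples. Both arms came up earliest in DC-primed sample 1, the sample with the highest summed level of myeloid miRNAs.

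The level of miR-9* was -1.29, -3.97 and -10.03 in DC-primed samples against -6.53, -6.07 and -5.64 in B cell-primed samples. Without DC-primed sample 3, also in the limit, it was 3.45 ± 0.91 higher in DC-primed cells (SE; adjusted p = 0.111). The 3 other hairpins were miR-21* with a ratio difference of -3.46, miR-29b* with -3.41 and miR-93* with -2.27. Without DC-primed sample 3 these were -1.28, -2.17 and -1.17, each with an SE of 1.23. With all 6 samples the unstarred arm miR-21 lay 3.19 higher in DC-primed cells while miR-21* differed by -0.27. Without DC-primed sample 3, where miR-21 had Ct 17.5 and miR-21* Ct 35.9, miR-21* differed by 0.51.

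Variation between samples was compared arm by arm. Over the 6 samples the median SD of the level was 1.03 for the star strand and 1.48 for the unstarred arm of the 33 hairpins, and that of the ratio was 1.52. The ratio varied more than either arm in 18 hairpins, less than both in 7 and between them in 8. miR-15a is an example of the first, with an SD of 0.51 for the star strand, 2.16 for the unstarred arm and 2.45 for the ratio. miR-22 is one of the second, with 1.83, 2.57 and 1.00.

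The raw Ct of several star assays hardly moved. For 7 of the 55 star strands (12.7%) the raw Ct spanned less than 2 cycles over the 6 samples, against 21 of 338 assays (6.21%) with a Ct in every sample, while the mean Ct of the samples spanned 4.24. They were miR-214*, at Ct 25.1 to 26.1, miR-425*, miR-30c-1*, let-7g*, miR-433*, miR-7a* and miR-26b*. On the level scale all 7 were highest in DC-primed sample 3, the sample whose other assays came up latest.

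At the other extreme were star strands that came up far later in DC-primed sample 3 than in the mean of the other 5 samples. The delay was 13.7 cycles for miR-674*, 11.2 for miR-186*, 10.5 for miR-29b*, 9.56 for miR-24-2* and 8.78 for miR-93*. The median delay was 3.12 cycles over star strands and 3.43 over all assays with a Ct in every sample. These 5 strands were not tested. Without that sample the level differences were 1.89 for miR-674*, -0.46 for miR-186*, -1.14 for miR-29b*, 1.42 for miR-24-2* and -1.71 for miR-93*, against -1.95, -2.99, -3.30, -0.95 and -3.20 with it.

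**Figure D5:**
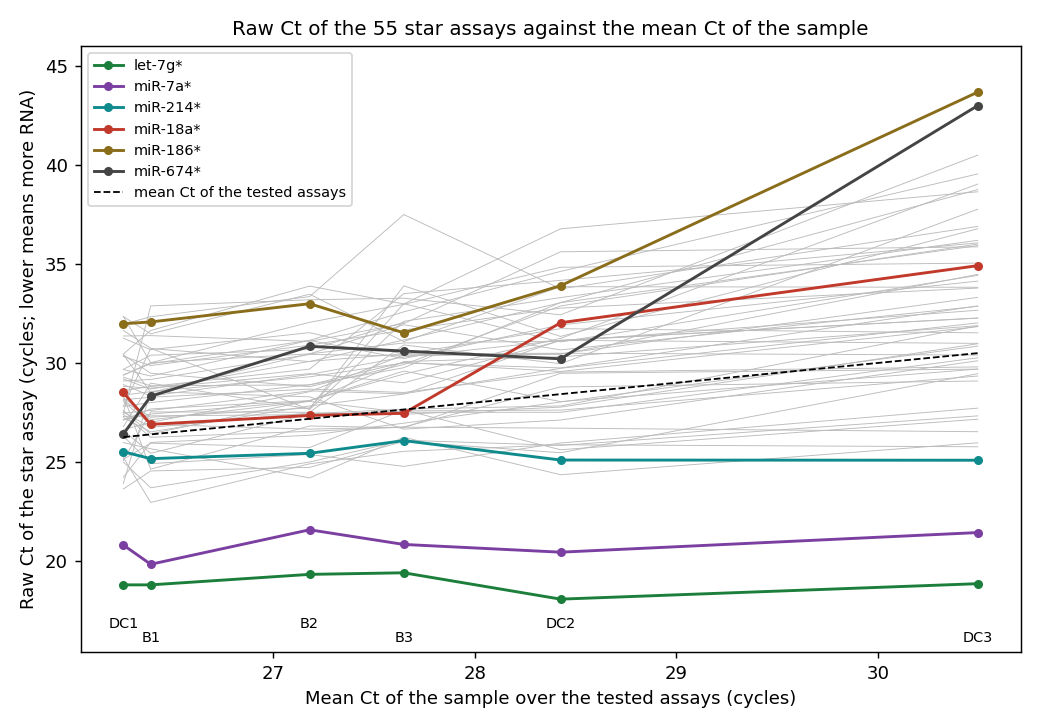
Raw Ct of the 55 star assays (grey, 6 named strands in colour) against the mean Ct of each sample over the 274 tested assays, with the dashed line at that mean. let-7g*, miR-7a* and miR-214* stay flat as the samples come up later, miR-18a* climbs in the DC-primed samples, and miR-186* and miR-674* jump in DC-primed sample 3.

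miR-24-1* and miR-24-2* read very differently in DC-primed sample 3 although their sequences are close. They come from a pair of hairpins, miR-24-1* at chr13:63301213-63301235 and miR-24-2* at chr8:84208839-84208860, both on the plus strand, whose unstarred arm miR-24 is identical. Their first 16 bases are the same, and a forward primer need not tell them apart.

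miR-24-1*: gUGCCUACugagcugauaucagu
miR-24-2*: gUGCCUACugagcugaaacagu
miR-24: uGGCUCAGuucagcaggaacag

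miR-24-1* had Ct values of 25.1, 25.6 and 27.2 in DC-primed samples against 26.0, 25.7 and 27.6 in B cell-primed samples. miR-24-2* had 25.1, 30.0 and 37.8 against 27.5, 27.5 and 30.9. The assays read alike in DC-primed sample 1 and far apart in DC-primed sample 3. With miR-24 as the common partner, the ratio in DC-primed sample 3 was 0.56 for miR-24-1* and -10.04 for miR-24-2*. The other star strands that share a seed were miR-200a* with miR-200b*, miR-17* with miR-20b* and miR-30a* with miR-30e*. Of these, miR-17* and miR-20b* both lay lower in DC-primed cells, at -1.29 and -1.07 (the second not tested), and the members of the others differed in sign, at 0.25 and -0.20 and at 0.57 and -0.53.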

How the data were processed

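Levels came from SYBR Green quantitative RT-PCR. Per the labels' protocols, RNA was isolated with mirVana reagents, cleared of DNA, tailed with poly(A) and reverse transcribed from tagged oligo-dT, and a specific forward primer amplified each miRNA. The deposited tables hold, per the file headers, raw Ct in one and in the other dCt as the authors computed it (a log2 scale), with ddCt and the p-value of a paired two-tailed t-test. File names and headers disagree on which is which, and the headers fit the values. For star strands and their partners the tables agreed within 0.02 cycles. The instrument is not given in the sources used here.

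An assay was tested if its Ct was below 35 in all 6 samples, and a ratio if both arms were. The main test was two-sided limma 3.58.1 (R 4.3.3; lmFit, then eBayes without trend or block), adjusted by Benjamini-Hochberg over 274 assays or 47 pairs of arms. The script was tested on simulated data. SE means limma's moderated error, and SD the spread of 3 samples. By exact permutation 3 samples against 3 cannot give p below 0.1. The rounds are numbered in the sample titles and paired in the authors' test. Here samples were paired only in the fits with the round as a block and in differences given by round. The main fit, with its SEs, intervals and adjusted p-values, did not pair them. Within rounds, departures from the group mean correlated at 0.16, 0.14 and 0.46. All star strands are named, of which miR-191*, miR-27a* and miR-299*, not tested, only here. Markers and cluster partners are given by counts, and some of them by name. Members and lists were chosen with earlier results of these data known. Plots used matplotlib 3.10.9 (Python 3.11.15).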

Additional observations from a re-analysis of the deposited data

How the results depend on the processing

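No star strand and no arm ratio was called under any setting run for it, 0 in each. For both these were Ct limits of 32, 33 and 38 or none, the round as a block, each sample left out, and, chosen after the data were seen, DC-primed sample 3 or both samples of round 3 left out of the limit as well. For levels they were also 4 other normalizations and a trend in the spread, and for ratios the deposited dCt, the exact permutation test and a fit of mouse star pairs alone. The exact permutation test could call nothing whatever the ratios, since its p cannot fall below 0.1 with 3 samples against 3. With the replicate block, which changed no call, 3 star strands and 33 of all 274 assays had an unadjusted p under 0.05, and the smallest adjusted p, which miR-18a* shared, was 0.0522; for ratios it was 0.928. Without DC-primed sample 1 the number of star strands with an unadjusted p under 0.05 was 10, against 58 of all 274 assays. Without DC-primed sample 3 it was 3, against 42, and limma called 2 assays that are not star strands. Limits of Ct, trend, median or mean scaling, the block and, for ratios, the deposited dCt in place of raw Ct, reversed no difference among those still tested. DC-primed sample 3 had the latest Ct values, and how precise they are was not measured.

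Without normalization these level differences reversed: miR-29c* -0.17, miR-30a* -0.76, miR-33* -0.65, miR-433* -0.67, miR-297a* -0.063, miR-7a* -0.15, miR-26b* -0.29, miR-30c-1* -0.62, miR-744* -0.97, miR-425* -0.36, miR-34c* -0.70, miR-200a* -1.08, miR-27b* -0.997, miR-467b* -1.07, miR-15b* -1.12, let-7a* -1.25, miR-16-1* -1.15 and miR-378* -1.27. Relative to RNY3 and snoRD47 these did: miR-15a* 0.88, miR-30e* 0.69, miR-106b* 0.69, miR-467a* 0.64, miR-200b* 1.03, miR-712* 0.64, miR-330* 0.92, miR-148a* 1.07, miR-141* 1.02, miR-99b* 1.18, miR-485* 1.16 and miR-200c* 1.23. Both follow from the common shift. Leaving out 1 sample reversed 20 level differences, whose ranges over the 6 such fits were let-7a* -0.39 to 0.35, miR-106b* -1.36 to 0.26, miR-141* -0.75 to 0.26, miR-148a* -0.46 to 0.038, miR-15b* -0.20 to 0.77, miR-16-1* -0.80 to 1.07, miR-200a* -0.16 to 0.84, miR-200c* -0.80 to 0.76, miR-27b* -0.39 to 0.71, miR-30c-1* -0.33 to 1.68, miR-30e* -1.38 to 0.40, miR-330* -0.82 to 0.61, miR-34c* -0.13 to 1.64, miR-378* -0.59 to 0.59, miR-425* -0.25 to 2.32, miR-433* -0.069 to 1.24, miR-467b* -0.35 to 1.10, miR-485* -0.48 to 0.53, miR-712* -2.12 to 0.26 and miR-99b* -0.35 to 0.36. It reversed 18 ratio differences, with ranges of let-7a* -1.73 to 0.58, miR-141* -0.37 to 0.33, miR-148a* -0.92 to 0.12, miR-150* -0.52 to 1.44, miR-15a* -1.56 to 1.96, miR-16-1* -1.69 to 3.49, miR-18a* -0.28 to 1.22, miR-200c* -0.17 to 1.79, miR-214* -0.022 to 0.92, miR-26b* -0.997 to 3.07, miR-27b* -0.19 to 3.31, miR-30c-1* -0.56 to 3.14, miR-34c* -1.54 to 0.31, miR-378* -0.65 to 1.18, miR-425* -0.047 to 2.12, miR-433* -0.31 to 1.66, miR-485* -0.21 to 0.66 and miR-744* -0.073 to 0.93. The cause was not tested.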
